A study of Mus musculus with 24 samples.

Results

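The resident perivascular macrophage genes are 10 genes used as markers of the macrophages that live in the outer wall of vessels: Mrc1, Cd163, Lyve1, Folr2, Timd4, F13a1, Retnla, Cd209f, Cd209g and Clec10a. They were chosen by symbol, by matching the Ensembl identifiers in the count tables to the names of GENCODE mouse release 21, and all 10 were found among the 55421 genes listed. RNA of uninjured carotid arteries from 24 female C57BL/6 mice was sequenced, 6 in each of 4 groups, and every mouse had been ovariectomized. OVX mice received placebo and serve as controls, E2 mice received estradiol, E4 mice received estetrol, a natural estrogen of pregnancy, and TAM mice received tamoxifen, a modulator of estrogen receptors. The labels give an age of 9 weeks, and the series text gives 3 weeks of treatment, while the methods of the paper describe a shorter one. Titles name 6 libraries as E4, although the treatment entry of the same libraries reads placebo, and the titles were followed. Each library has its own animal number, so a replicate is named here by group and number (OVX C5).

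Resident macrophages of the artery wall lie mainly in the adventitia, along small vessels and next to the smooth muscle layer, and they clear dying cells, debris and excess matrix. Many of them settle before birth and renew locally, while others derive from blood monocytes. They are recognised by scavenger receptors and lectins that take up glycoproteins, hyaluronan or apoptotic cells, and several of these genes are also induced by interleukin-4 signaling through STAT6. Some of the genes are used elsewhere: Lyve1 also marks lymphatic endothelium, and F13a1 is also made by megakaryocytes.

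Promoter sequence was looked at because the 10 genes moved together across the libraries. RefSeq promoter windows of GRCm38.p6, 300 bases around a transcription start, were found for 8 of the 10 genes, all but Lyve1 and Clec10a. Folr2 and F13a1 have 2 windows each, so the 8 genes have 10 windows. On both strands, the STAT6 motif (TTC, any 4 bases, GAA) was present in the window of 1 gene, Retnla, and in 6.95% of all 32851 promoter windows. The MAF motif TGCTGA was present in Folr2 (both windows), Timd4 and Retnla and in 19.5% of all windows. The PU.1 motif GAGGAAGT was present in Retnla and F13a1 and in 3.2% of all windows. The estrogen response element (GGTCA, any 3 bases, TGACC) was present in 0 of the 8 genes and in 0.07% of all windows, which says only that these letters are not in these windows. No match overlapped a match of another of these motifs. The windows of Retnla, Timd4 and Folr2 are shown 5′ to 3′ on the strand of the gene, up to the annotated start of the gene, because these stretches hold the STAT6 match, 3 MAF matches and a PU.1 match. Further MAF matches, in Retnla and in the other window of Folr2, and the PU.1 match of F13a1 lie outside them. In Retnla (chr16:48842359-48842550, plus strand) the capitals mark the PU.1 match on the opposite strand and then the STAT6 match. In Timd4 (chr11:46810549-46810798, plus strand) they mark MAF motifs on the opposite strand, and in Folr2 (chr7:101857195-101857440, minus strand) a MAF motif on the strand of the gene.
Retnla: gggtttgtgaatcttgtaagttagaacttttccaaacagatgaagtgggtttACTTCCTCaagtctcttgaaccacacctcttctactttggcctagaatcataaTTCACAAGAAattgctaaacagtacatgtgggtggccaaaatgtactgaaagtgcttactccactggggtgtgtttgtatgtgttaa
Timd4: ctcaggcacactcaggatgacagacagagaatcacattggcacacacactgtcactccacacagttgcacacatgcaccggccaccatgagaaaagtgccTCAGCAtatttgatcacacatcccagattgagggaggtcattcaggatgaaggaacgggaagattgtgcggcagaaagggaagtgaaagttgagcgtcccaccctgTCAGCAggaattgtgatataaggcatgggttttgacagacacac
Folr2: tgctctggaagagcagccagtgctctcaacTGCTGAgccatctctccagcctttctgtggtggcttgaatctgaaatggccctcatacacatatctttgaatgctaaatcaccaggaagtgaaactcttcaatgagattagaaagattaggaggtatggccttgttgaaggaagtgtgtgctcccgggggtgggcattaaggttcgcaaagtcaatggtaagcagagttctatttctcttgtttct

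The total count per library was 24647246 to 64221401, with a median of 45156106, and the lowest total belonged to E4 C38. All 10 genes passed edgeR's default filter on low counts, which kept 25056 genes for testing, and the lowest count of any of them in any library was 70, for Timd4 in an E4 library. Levels are given as CPM, the count normalised to the library total after TMM scaling. Smooth muscle markers (6 genes) summed to 2239 to 7947 CPM per library. Libraries stood apart in other markers: sympathetic neuron genes summed to 33.5 CPM in OVX C5 and 182 CPM in TAM C35, whereas the highest library of those groups had 5138 and 6728 CPM, thyroid genes reached 2989 CPM in E4 C38, and T cell genes 363.6 CPM in E2 C9. Animal numbers fell in 2 separate series in each group, 4 and 2 mice in OVX and 3 and 3 in the others, and the labels do not say what the series are. Folr2 overlaps Gm10602 and F13a1 overlaps Gm30489 on the opposite strand, and the strand setting of the counting is not given in the sources used here, so reads of these pairs may be shared. Of the 75-base words in their transcripts, 23.5% of Cd209f and 13.2% of Cd209g were common to both genes, and 4.44% of Clec10a were common with Mgl2. The division of reads within these pairs may therefore be uncertain. The other 7 genes shared 0 such words with another gene. The paper gives longer reads, in pairs, and words of that length were not compared.

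All 10 genes had their highest mean level in E2-treated mice. Per kb of exon, the level in E2-treated mice ranged from 4.27 ± 0.951 CPM per kb for Timd4 to 392.7 ± 57.3 for Retnla (mean ± SD, n = 6), and the other 8 genes lay between 5.65 for Cd209g and 35.03 for F13a1. In 9 of the 10 genes the step from E2 down to the next group passed the test, and in 0 of the 10 did the neighbouring steps among OVX, E4 and TAM pass. OVX C5 was the highest OVX library for every one of the 10 genes, at 1.55 to 2.27 times the mean of the other 5, and values without it are given where it matters. Because whole arteries were sequenced, more macrophages and more RNA per macrophage cannot be told apart.

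**Figure D1:**
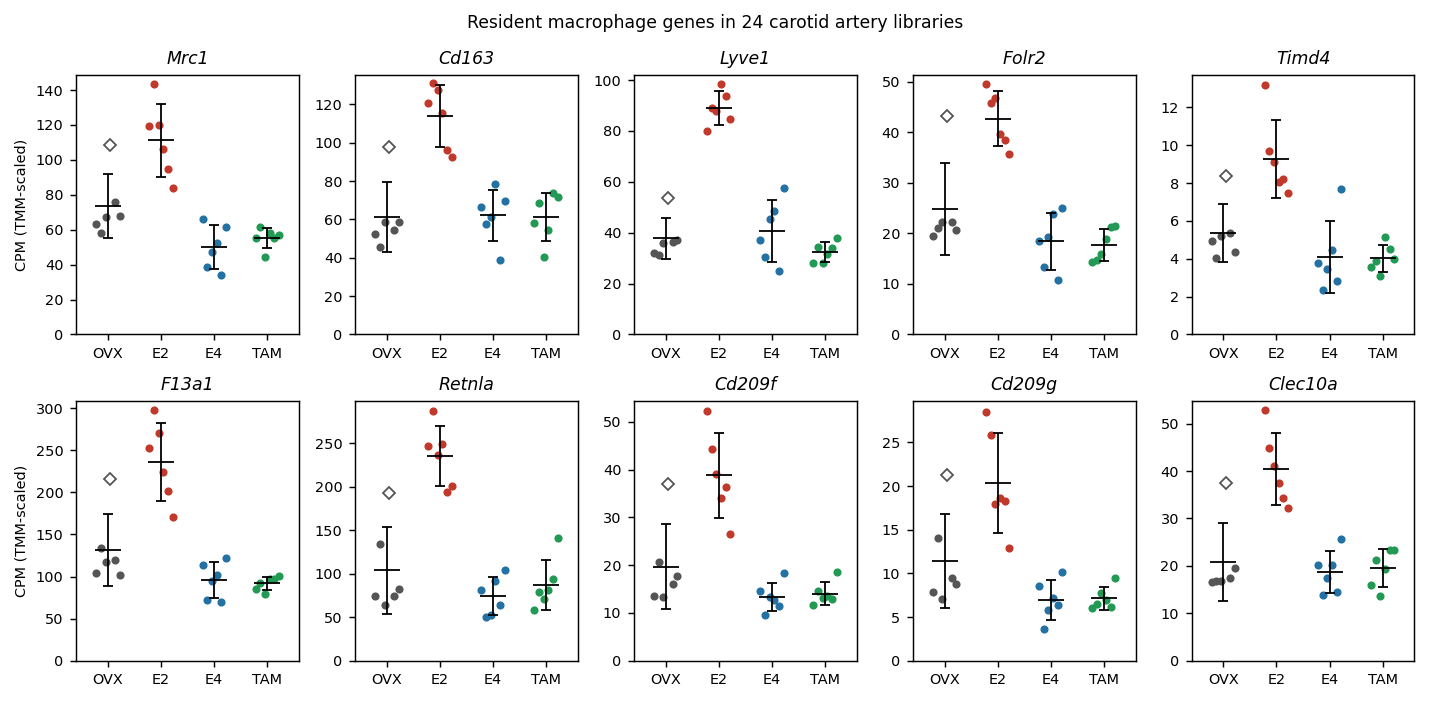
CPM (TMM-scaled, linear axes from 0) of the 10 genes in each of the 24 libraries by group; each point is 1 mouse, the open diamond is OVX C5, and the black bars are group means ± SD (n = 6). The E2 points lie above all E4 points for every gene except Timd4, and OVX C5 lies apart from the other OVX libraries.

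The first comparison asks what estradiol did to resident macrophage genes in the uninjured artery. As compared with OVX, 9 of the 10 genes rose with E2 at an adjusted p under 0.05 (quasi-likelihood test of edgeR, Benjamini-Hochberg adjustment over all genes), by 1.51-fold to 2.36-fold. Among all genes tested, 2.87% rose by the same criterion. Lyve1 and Retnla also passed the additional threshold of the study, an absolute log2 fold change over 1, which 0.922% of all genes passed upwards. Without OVX C5, 8 of the 10 passed both thresholds, in a fit where 1262 of 25270 genes passed the adjusted p in either direction. The number was 2 to 8 with single libraries left out and 0 to 8 in the other alternatives. The share of all genes past both thresholds is not given for these fits. The median log2 fold change of the 10 genes was 0.87, beside 0.01 over all tested genes.

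Among the scavenger and uptake receptors, Lyve1 had the largest fold change and Mrc1 the smallest. Lyve1, the hyaluronan receptor, lay at 31.3 to 53.6 CPM in OVX (median 36.1) and at 80.1 to 98.5 CPM in E2 (median 88.5). The groups did not overlap, and the lowest E2 mouse was well above OVX C5. Its log2 fold change was 1.24 ± 0.16 (SE) with an adjusted p of 1.5e-05 in edgeR's quasi-likelihood test. Cd163, the receptor for haptoglobin-hemoglobin complexes, lay at 45.8 to 97.7 CPM in OVX (median 56.5) and at 92.7 to 130.9 CPM in E2 (median 118.1), with an increase of 0.89 ± 0.18 and an adjusted p of 0.0029. Only OVX C5 reached into the range of the E2 mice. Mrc1, the mannose receptor, went from 57.9 to 108.8 CPM in OVX (median 67.4) to 84.1 to 143.4 CPM in E2 (median 112.8), with a log2 fold change of 0.60 ± 0.16 and an adjusted p of 0.034 in edgeR. Folr2, the folate receptor beta of macrophages, had a median of 21.6 CPM in OVX and 42.7 CPM in E2, a log2 fold change of 0.78 ± 0.20 and an adjusted p of 0.022. Timd4, which binds phosphatidylserine on dying cells, had the lowest level per kb of the 10 genes, with 4.03 to 8.35 CPM in OVX and 7.49 to 13.2 CPM in E2. It rose by a log2 fold change of 0.79 ± 0.22, with an adjusted p of 0.047 close to the threshold.

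Retnla and F13a1, which encode a secreted protein and an enzyme, had the highest levels per kb of exon in E2. Retnla, a secreted product of alternatively activated macrophages and the gene with the STAT6 match shown above, lay at 64.3 to 192.8 CPM in OVX (median 78.7) and at 193.2 to 286.6 CPM in E2 (median 241.3). OVX C5, at 192.8 CPM, lay just under the lowest E2 mouse, and the log2 fold change was 1.18 ± 0.25 with an adjusted p of 0.0059. F13a1, the catalytic subunit of the crosslinking enzyme factor XIII, lay at 101.4 to 215.5 CPM in OVX (median 118.1) and at 171.2 to 297.2 CPM in E2 (median 238.3), with a log2 fold change of 0.84 ± 0.17 and an adjusted p of 0.0040. Here too the overlap came from OVX C5, since the next OVX mouse had 133.3 CPM.

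The remaining 3 genes encode lectins. Cd209f and Cd209g belong to the DC-SIGN family of carbohydrate receptors, and Clec10a binds galactose and N-acetylgalactosamine. Clec10a lay at 16.6 to 37.6 CPM in OVX (median 17.2) and at 32.3 to 52.8 CPM in E2 (median 39.3), and rose by a log2 fold change of 0.96 ± 0.20 (edgeR, adjusted p = 0.0046). Cd209f had a median of 16.9 CPM in OVX and 37.7 CPM in E2, with a log2 fold change of 0.98 ± 0.21 and an adjusted p of 0.0069. Cd209g did not pass: it lay at 7.04 to 21.2 CPM in OVX (median 9.15) and at 12.9 to 28.5 CPM in E2 (median 18.5), with a log2 fold change of 0.84 ± 0.25, an interval of ±2 SE from 0.33 to 1.34, and an adjusted p of 0.062. The division of reads within this pair of neighbouring genes may be uncertain, as noted above.

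In 2 of the 10 genes, Lyve1 and Retnla, every E2 mouse lay above every OVX mouse, which was so for 1.99% of all genes. With OVX C5 left out this held for 9 of the 10 genes, all but Cd209g, against 3.63% of all genes. The same fit without OVX C5 called all 10 genes higher, Cd209g included (log2 fold change 1.11, edgeR adjusted p = 0.0032) beside 1262 of all 25270 genes tested in that fit. Within the first number series the mean in E2 was 1.72 to 2.24 times that in OVX and within the second 1.32 to 2.73 times, above OVX for all 10 genes in both. In these fits 1 gene passed in the first (Lyve1, adjusted p = 0.0092 by edgeR) and 0 in the second, where 341 and 92 of all genes were called. Each of Mrc1, Folr2 and Timd4 lost its call when certain single libraries were left out: Mrc1 without any OVX mouse other than C5, or E2 C6, C8, C9 or C26 (highest adjusted p = 0.092), Folr2 without OVX C2, C3, C24 or C25 or E2 C6 (0.057), and Timd4 in 16 of the 24 fits that each omit 1 library (0.12).

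**Figure D2:**
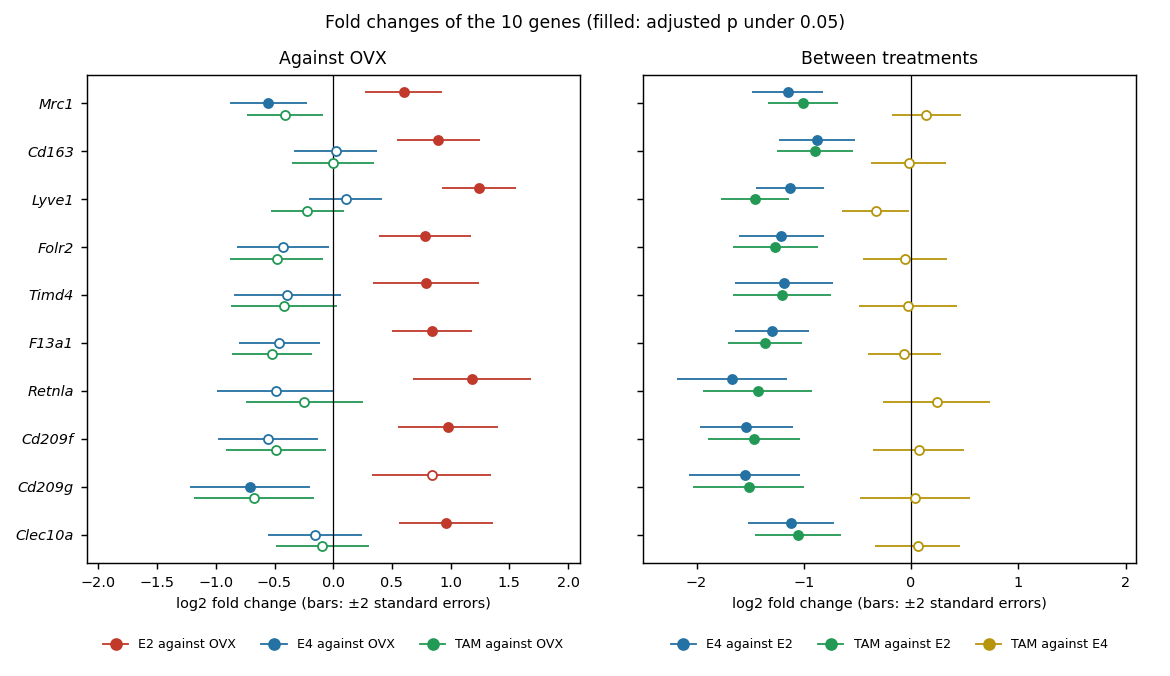
Log2 fold changes of the 10 genes from edgeR, against OVX on the left and between treatments on the right; bars are ±2 standard errors, and filled points have an adjusted p under 0.05. The E2 points lie between 0.60 and 1.24, the E4 and TAM points against OVX between -0.71 and 0.11, and against E2 all points lie under -0.87.

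General macrophage markers rose alongside, in a list chosen with earlier results of these data known. Of 20 pan-macrophage genes, such as the colony-stimulating factor receptor Csf1r and the complement genes C1qa to C1qc, 17 were higher in E2 than in OVX, 0 were lower and 3 did not pass, with a median log2 fold change of 0.80. The highest were Itgam (1.48 ± 0.15), an integrin of myeloid cells, C1qb (1.0003 ± 0.17) and C1qa (0.92 ± 0.15), and the smallest of the 17 were Tyrobp (0.62 ± 0.16), Ctss (0.61 ± 0.13) and Cd14 (0.58 ± 0.15), the lipopolysaccharide coreceptor. Library by library, the mean log2 CPM of the 10 resident genes and that of the 20 pan-macrophage genes moved together, and OVX C5 was high in both: its pan-macrophage mean was 4.96, while the next OVX library had 4.52. The resident mean lay 0.23 to 0.82 log2 units above the pan-macrophage mean in OVX (C5 the highest), 0.58 to 0.74 in E2, 0.19 to 0.42 in E4 and 0.08 to 0.43 in TAM. Entered as a covariate, the pan-macrophage mean left 1 of the 10 genes called for E2, Lyve1 (log2 fold change 0.56, adjusted p = 0.031 by edgeR), and the other 9 lay between -0.35 and 0.09. That fit called 4340 of all 25056 genes, a larger share than among the 10. Relative to the pan-macrophage mean, Lyve1 lay at 0.59 to 0.79 log2 units in OVX and at 0.86 to 1.51 in E2, without overlap. The covariate itself did not overlap between the groups, at 4.33 to 4.96 in OVX and 5.01 to 5.48 in E2. No OVX library reached the mean of any E2 library, so this fit cannot separate the covariate from the treatment.

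**Figure D3:**
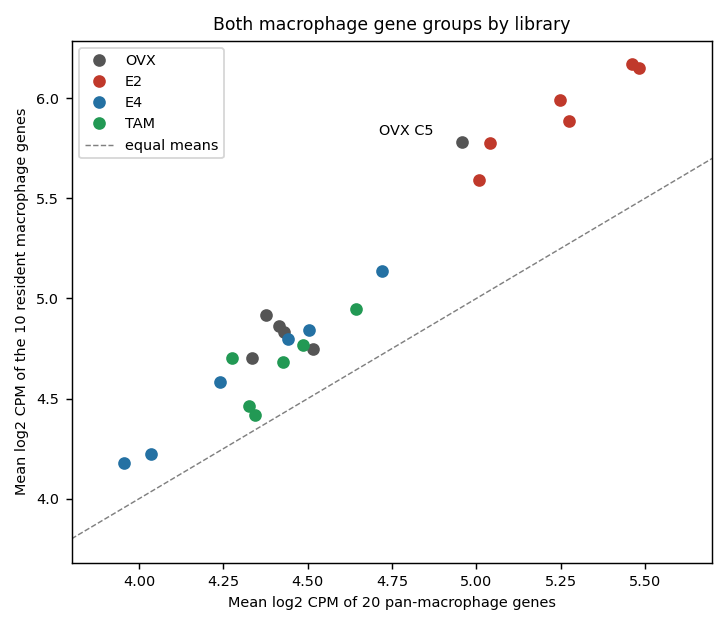
Mean log2 CPM of the 10 resident macrophage genes against that of 20 pan-macrophage genes, 1 point per library, colored by group; the dashed line marks equal means. The 6 E2 libraries lie at 5.01 or more on the horizontal axis and OVX C5 at 4.96, apart from the other OVX libraries at 4.33 to 4.52.

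Further resident macrophage genes, 20 of which were listed and 19 tested (all but Marco), went in both directions with E2: 10 were higher and 1 was lower, with a median log2 fold change of 0.70. Vsig4, a complement receptor that clears opsonised particles, had the largest increase (2.49 ± 0.36), followed by the chemokine Ccl8 (2.18 ± 0.35) and the sialic acid receptor Siglec1 (1.91 ± 0.19). The lower one was Cd209a (-0.60 ± 0.17), another DC-SIGN family gene, used also as a marker of dendritic cells. Of 15 tested alternative activation genes, 4 were higher and 1 was lower. The higher ones were Il4ra (2.07 ± 0.18), the interleukin-4 receptor alpha chain, Irf4 (1.53 ± 0.30), a transcription factor downstream of it, the transglutaminase Tgm2 (0.82 ± 0.18) and the alarmin Il33 (0.80 ± 0.12), and the lower one was Il13ra1 (-0.51 ± 0.11). Of 12 tested macrophage growth and recruitment signals, Tgfbr2 and Irf8 were higher and 0 were lower. Of 12 inflammatory and lipid-laden macrophage genes, Gpnmb and Lgals3 were higher and 0 were lower.

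Markers of the other cells that could carry these transcripts were also measured. Of 10 monocyte genes, Hp (1.52 ± 0.20), which encodes haptoglobin, and Ccr2 (0.83 ± 0.15), the receptor that draws monocytes into tissue, were higher with E2, and the other 8 did not pass, with a median log2 fold change of 0.23 over the list. The list summed to 376.9 to 554.3 CPM in OVX and 717.7 to 1105 CPM in E2, of which Hp alone made up a mean of 213.6 and 614.6 CPM. None of the 6 lymphatic endothelial genes passed the test with E2 in edgeR, while Lyve1 rose, and they summed to 80.1 to 113.7 CPM in OVX and 77.9 to 113.6 CPM in E2. None of the 6 tested megakaryocyte and platelet genes passed either, while F13a1 rose, with medians of 22.1 and 24.2 CPM. Eosinophil genes were scarce, 3 of 6 being tested and summing to at most 3.19 CPM in any library, with Epx, Prg2 and Ear1 under the filter. Of 8 dendritic cell genes, Cd209a was lower and 0 were higher. White adipocyte genes summed to 1466 to 3101 CPM in OVX and 2238 to 3373 CPM in E2, with Cfd higher and Retn lower. The part of monocytes in the result was not tested. With the mean of the adipocyte list as a covariate, edgeR called 9 of the 10 genes higher with E2, and 1381 of all genes in either direction.

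**Figure D4:**
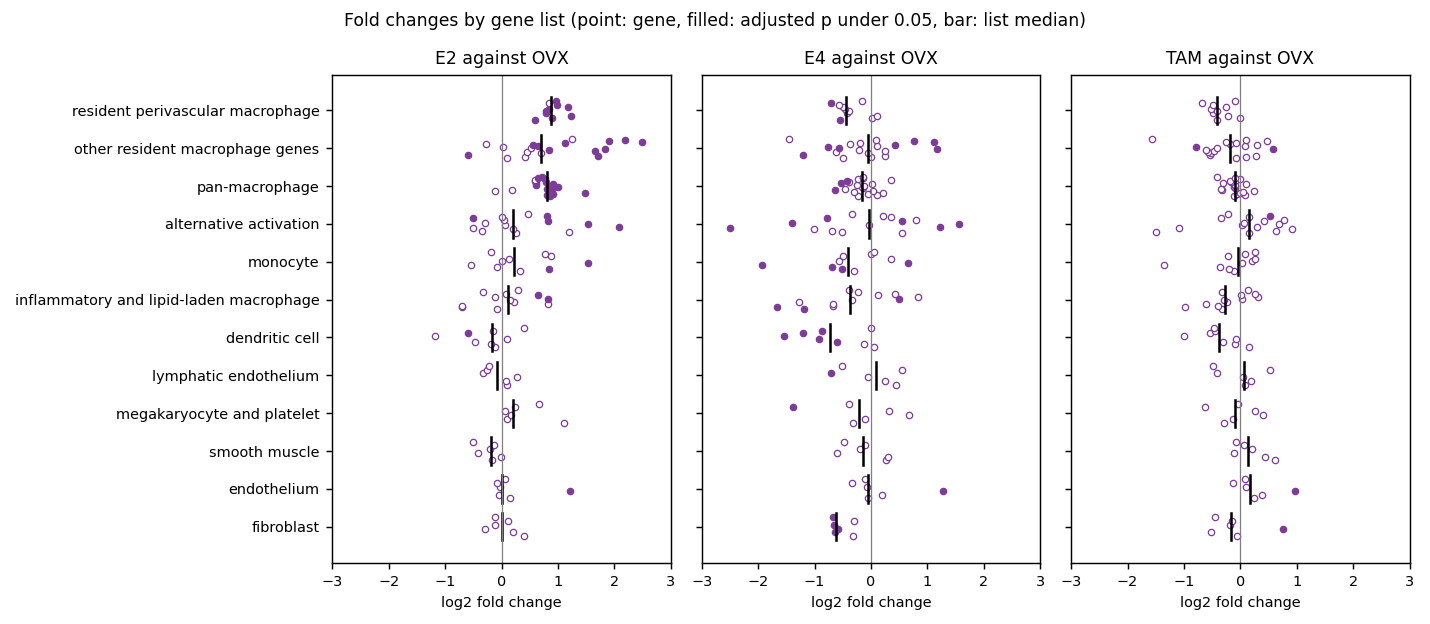
Log2 fold changes against OVX by gene list for E2, E4 and TAM; each point is a tested gene, filled points have an adjusted p under 0.05 in edgeR, and black bars are list medians. With E2 the medians of the 3 macrophage lists at the top are 0.87, 0.70 and 0.80, with E4 they are -0.44, -0.05 and -0.16, and with TAM -0.41, -0.18 and -0.10.

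Estetrol was compared with the same 6 OVX mice. Of the 10 genes, 2 fell with E4 and 0 rose, where 12.5% of all genes fell, and 0 of the 10 passed downwards with the fold threshold of the study in edgeR, where 1.68% of all genes did. At an unadjusted p under 0.05 there were 5, beside 36.3% of all genes. Mrc1 lay at 34.3 to 66.4 CPM in E4 (median 49.9) and fell by 0.55 ± 0.16 on the log2 scale, with an adjusted p of 0.020, and Cd209g lay at 3.66 to 10.2 CPM (median 6.79) and fell by 0.71 ± 0.26, with an adjusted p of 0.049. Both E4 ranges overlapped those of OVX. Without OVX C5 both calls were lost (-0.39 for Mrc1, adjusted p = 0.065 by edgeR, and -0.42 for Cd209g, adjusted p = 0.19), and both were also lost without E4 C19. Cd209g was called in 9 of the 24 fits that omit 1 library. Lyve1 had 24.9 to 57.6 CPM in E4 (median 41.2) and a log2 fold change of 0.11 with an interval of ±2 SE from -0.20 to 0.42, and Cd163 had 39.1 to 78.4 CPM (median 64.03) and a log2 fold change of 0.02, from -0.33 to 0.37. The median of the 10 genes was -0.44, and the remaining genes did not pass, with -0.56 for Cd209f, -0.49 for Retnla, -0.46 for F13a1, -0.43 for Folr2, -0.39 for Timd4 and -0.16 for Clec10a. Without OVX C5 the values were nearer 0 or above it: -0.27 for Cd209f, -0.20 for Retnla, -0.25 for F13a1, -0.18 for Folr2 and -0.21 for Timd4. Clec10a then lay at 0.11, Lyve1 at 0.25 and Cd163 at 0.21.

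The rest of the macrophage program was mixed with E4. Of the 20 pan-macrophage genes, 3 were lower, Aif1 (-0.64 ± 0.18), Tyrobp (-0.53 ± 0.16) and Cd14 (-0.42 ± 0.15), and 0 were higher. Of the 19 further resident genes, 4 were higher, among them the apoptotic cell bridging protein Gas6 (1.17 ± 0.15), Vsig4 (1.12 ± 0.37) and Siglec1 (0.76 ± 0.18), and 3 were lower, Cd209a (-1.20 ± 0.18), the chemokine Ccl24 (-0.76 ± 0.17) and Pf4 (-0.57 ± 0.18). Irf4 (1.56 ± 0.30), Il4ra (1.23 ± 0.17) and Tgm2 (0.55 ± 0.18) were higher, and Alox15 (-2.49 ± 0.61), Pdcd1lg2 (-1.41 ± 0.43) and Il13ra1 (-0.78 ± 0.11) were lower. Of the growth and recruitment signals, Cx3cl1 (0.73 ± 0.18) and Tgfb1 (0.55 ± 0.12) were higher, and Ccl7 (-0.70 ± 0.25) and Il10ra (-0.68 ± 0.15) were lower. Of the inflammatory and lipid-laden macrophage genes, Gpnmb was higher (0.50 ± 0.15), and the cytokine genes Tnf (-1.67 ± 0.31) and Il1b (-1.19 ± 0.38) were lower. Among monocyte genes Hp was higher (0.65 ± 0.20), and Plac8 (-0.69 ± 0.21) and Ccr2 (-0.52 ± 0.15) were lower. Lower calls also reached other cell types of the wall: 5 of 8 dendritic cell genes, 7 of 8 B cell genes, 4 of 6 fibroblast genes and all 3 tested eosinophil genes were lower with E4, and their part in the 2 falls above was not tested for dendritic cells, fibroblasts and eosinophils. With the B cell list as a covariate 0 of the 10 genes was called for E4, in a fit that called 118 of all genes.

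With tamoxifen, 0 of the 10 genes passed as compared with OVX (edgeR, where 2.23% of all genes passed), and 5 had an unadjusted p under 0.05, as did 21% of all genes. DESeq2 also called 0 of the 10, beside 1583 of 41760 genes. That total holds every gene with a count, before DESeq2's own filter, so its share is not on the scale of edgeR's. All 10 values lay at or below 0, from -0.68 for Cd209g to 0.00 for Cd163, with a median of -0.41. Without OVX C5 this did not hold: Cd163 (0.18), Clec10a (0.16) and Retnla (0.024) lay above 0. The others then lay between -0.40 for Cd209g and -0.092 for Lyve1. F13a1 had the smallest adjusted p, 0.090, with 79.5 to 100.6 CPM in TAM (median 94.6) and a log2 fold change of -0.52 ± 0.17. It was the 1 gene of the 10 whose TAM mice all lay below the OVX mice, the lowest of which had 101.4 CPM, and 1.09% of all genes were lower in this way. Retnla lay at 58.3 to 140.7 CPM (median 80.5), with an interval of the log2 fold change from -0.75 to 0.25, and Lyve1 at 28.1 to 37.9 CPM (median 32.9), from -0.53 to 0.09. The log2 fold change was -0.49 for Cd209f, -0.48 for Folr2, -0.42 for Timd4, -0.41 for Mrc1 and -0.095 for Clec10a. Of the pan-macrophage genes 0 passed, and of the further resident genes Gas6 was higher (0.58 ± 0.15) and Ccl24 lower (-0.78 ± 0.17). Of the alternative activation genes Il33 was higher (0.53 ± 0.12) and 0 were lower. All comparisons against OVX share the 6 OVX mice, OVX C5 among them.

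Estetrol and tamoxifen were next compared with estradiol itself, in the same fit of all 24 libraries, so the OVX mice enter through the filter, the scaling, the shared estimate of the spread and the set of genes adjusted over. E2 and E4 are both natural estrogens, and E4 carries additional hydroxyl groups on the steroid. The labels give no doses, and the methods of the paper describe pellets with a larger mass of E4 than of E2, chosen with the aim of a like estrogenic exposure, so these are comparisons of the treatments as they were given and not at matched mass. All 10 genes were lower with E4 than with E2 (edgeR, where 9.05% of all genes were lower), by 1.83-fold to 3.18-fold, and 9 passed the fold threshold of the study, beside 2.27% of all genes. In 9 of the 10 genes the groups did not overlap, beside 4.13% of all genes. The exception was Timd4, whose highest E4 mouse had 7.67 CPM and lowest E2 mouse 7.49 CPM. Retnla had the largest difference, with 49.9 to 104.0 CPM in E4 against at least 193.2 CPM in E2 (-1.67 ± 0.26, adjusted p = 0.00028), followed by Cd209g (-1.55 ± 0.26) and Cd209f (-1.54 ± 0.22). Cd163 had the smallest (-0.87 ± 0.18, adjusted p = 0.0030 by edgeR). Between these lay F13a1 (-1.30), Folr2 (-1.21), Timd4 (-1.18), Mrc1 (-1.15), Lyve1 (-1.13) and Clec10a (-1.12). Of the pan-macrophage genes 18 of 20 were lower, with a median log2 fold change of -1.0005, Itgam (-1.26 ± 0.15), Lyz2 (-1.26 ± 0.20) and Fcer1g (-1.19 ± 0.15) leading. Of the 19 further resident genes 14 were lower and 0 higher, among them Cd5l (-2.70 ± 0.83), Ccl8 (-2.09 ± 0.36) and Mgl2 (-1.47 ± 0.16). Lists of other cells and states moved in the same comparison. Of 15 tested alternative activation genes 4 were lower with E4 than with E2, and of 12 growth and recruitment signals 5 were lower and 1, Il34, was higher. Of 10 monocyte genes 5 were lower, among them Ccr2 (-1.35 ± 0.15), as were 3 of 8 dendritic cell genes, 4 of 6 fibroblast genes (Dpt, Pdgfra, Lum and Dcn) and 8 of 8 T cell genes, the latter with the high E2 C9 library in the comparison. Of the 6 tested genes of megakaryocytes and platelets, which also hold F13a1, Ppbp (-1.63 ± 0.43) and Gp9 (-1.44 ± 0.42) were lower, while the list summed to 19.5 to 28.0 CPM in E2 and 23.5 to 30.3 CPM in E4. Of 6 white adipocyte genes, Lep, which encodes leptin, was lower (-1.87 ± 0.27), and the list summed to 2238 to 3373 CPM in E2 and 1862 to 3123 CPM in E4. With that list as a covariate 7 of the 10 resident genes and 387 of all genes were called. The part of the other lists in the result was not tested. The same 10 genes were called without each of the 24 libraries in turn. Without OVX C5 this was beside 3798 of all 25270 genes, more than in the main fit, and the other such fits are given without their counts over all genes. Within the first number series the E2 mean was 2.04 to 4.18 times the E4 mean and all 10 were called beside 3172 of all genes, and within the second 1.59 to 2.48 times with 0 called, where edgeR called 0 of all genes. With the pan-macrophage mean as a covariate 0 of the 10 and 0 of all genes were called. That mean lay at 3.96 to 4.72 in E4 and 5.01 to 5.48 in E2, without overlap, so this fit cannot separate it from the treatment.

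Against E2, tamoxifen gave a like picture. All 10 genes were lower with TAM (edgeR, where 4.48% of all genes were lower), by 1.86-fold to 2.86-fold, and 9 passed the fold threshold, beside 1.39% of all genes. In all 10 genes every TAM mouse lay below every E2 mouse, beside 3.12% of all genes. Lyve1 had the smallest adjusted p (2.0e-06) with a log2 fold change of -1.46 ± 0.16, and Cd209g the largest difference (-1.52 ± 0.26). The others were Cd209f (-1.46), Retnla (-1.43), F13a1 (-1.36), Folr2 (-1.26), Timd4 (-1.21), Clec10a (-1.05), Mrc1 (-1.01) and Cd163 (-0.90). Pan-macrophage genes were lower in 17 of 20, with a median of -0.87, and further resident genes in 14 of 19, Cd5l (-2.83 ± 0.81), Vsig4 (-2.75 ± 0.37) and Fcna (-2.11 ± 0.22) leading. Of other lists, 2 of 10 monocyte genes (Hp and Ccr2), 1 of 8 dendritic cell genes (Siglech) and 1 of 6 fibroblast genes (Dpt) were lower with TAM than with E2, Col1a1 was higher, and 0 of 8 T cell genes passed in edgeR. Of the megakaryocyte and platelet genes, Gp9 was lower (-1.40 ± 0.41). Their part in the result was not tested. Of 6 white adipocyte genes, Lep (-2.02 ± 0.27) and Cfd (-1.19 ± 0.19), which encodes adipsin, were lower with TAM, and the list summed to 1533 to 2338 CPM in TAM. Within the number series the E2 mean was 2.26 to 3.69 and 1.53 to 2.68 times the TAM mean, with 10 and 1 of the 10 genes called by edgeR, where 1150 and 115 of all genes were called. With the white adipocyte list as a covariate 3 of the 10 genes and 510 of all genes were called, and with the pan-macrophage mean 1, Lyve1 (-0.68, adjusted p = 0.034 by edgeR), and 1329 of all genes. The pan-macrophage mean lay at 4.27 to 4.64 in TAM, below every E2 library, so that fit cannot separate it from the treatment either. The E2 mice are shared by both of these comparisons.

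Between tamoxifen and estetrol, 0 of the 10 genes passed in edgeR, where 0.343% of all genes passed, and 1 had an unadjusted p under 0.05, beside 9.12% of all genes. DESeq2 called 0 of the 10, beside 193 of 41760 genes, a total again taken before its own filter. The log2 fold changes of the 10 genes lay between -0.33 for Lyve1 and 0.24 for Retnla. For Lyve1 the interval of ±2 SE was -0.64 to -0.02, and for Retnla -0.26 to 0.74, so the intervals include differences of up to that size.

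Within groups the 10 genes also varied together. After each group's mean was subtracted, Spearman's correlation between 2 of the genes over the 24 libraries ranged from 0.34 to 0.88 in the 45 pairs, with a median of 0.72. Without OVX C5 the median was 0.68. The libraries share depth and tissue composition, so these are descriptions. Among 19520 genes with a mean of at least 1 CPM, those most like the mean pattern of the 10 by Spearman's correlation over the 24 libraries were Lyz2, the macrophage lysozyme (0.97), Cd300ld (0.97), Gm10602, which overlaps Folr2 (0.97), Pld4 (0.96), Cfp, which encodes properdin (0.95), Ncf1, a subunit of the phagocyte oxidase (0.94), and Pf4, AI467606, Emilin2 and Dok2 (0.93 each). After subtraction of group means the list was Cfp (0.93), Nfam1, Pld4, Gm10602, Selenop, Clec4a3, Pf4, Alox5ap, Igdcc4 and Dab2 (0.90).

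The number series were compared once more by a test of the interaction with treatment. It called 0 of all genes for each treatment against OVX by edgeR, with 861, 1438 and 2703 genes at an unadjusted p under 0.05 for E2, E4 and TAM. Of the 10 genes, 0 reached an unadjusted p under 0.05 for E2, and Retnla did for E4 and for TAM.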

How the data were processed

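Carotid artery RNA of 24 mice, 6 per group, was sequenced as paired reads from a stranded mRNA kit. The authors trimmed and aligned the reads, and the submitters' processing notes name bcl2fastq 2.17, Trim Galore, Bowtie2, featureCounts, mm10 and GRCm38; their strand setting and their test for these tables are not given in the sources used here. The deposited values are estimated counts per gene without normalization, 1 table per library, and those with decimals were rounded.

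Names, positions and exon lengths came from GENCODE mouse release 21, which holds 55154 of the 55421 identifiers. The counts of all 24 libraries entered 1 fit of edgeR 4.0.16 (R 4.3.3), using TMM factors of 0.964 to 1.03, its default filter and the quasi-likelihood test, without covariates. P-values were adjusted by Benjamini-Hochberg over 25056 genes. Standard errors were derived from the F statistic, and intervals are ±2 standard errors. Genes were called at an adjusted p under 0.05, and separately with an absolute log2 fold change over 1. The procedure was tested on simulated data.

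The 10 members are named in each contrast, except between TAM and E4, where they are given as a range; genes named as changed from other macrophage lists were taken among the 3 highest and 3 lowest called of a contrast, and not all of these are named; the 10 genes most alike in pattern are named with a mean of at least 1 CPM. A called gene of the monocyte list is not reported here. Members and lists were chosen with earlier results of these data known. Alternatives covered DESeq2 1.42.0, scaling, filters, libraries in the fit, number series, marker lists as covariates and each library left out. Per-sample depth was the total count; the labels give RNA integrity numbers above 7.4. Mice are taken as separate animals from their numbers.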

Additional observations from a re-analysis of the deposited data

Results flagged for a closer look

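In 48 groups of 6 values (the 10 genes, the pan-macrophage mean and the total count, in 4 groups), 10 had a highest or lowest sample whose gap to its nearest neighbour exceeded Dixon's 95% limit for 6 samples as a share of the whole range, where chance gives about 2.4. In 9 of these the sample was OVX C5. It had 108.8 CPM for Mrc1, 97.7 for Cd163, 53.6 for Lyve1, 43.2 for Folr2, 8.35 for Timd4, 215.5 for F13a1, 36.9 for Cd209f and 37.6 for Clec10a, each above the other 5 OVX mice, and a pan-macrophage mean of 4.96 log2 CPM. Retnla and Cd209g were also highest in OVX C5 (192.8 and 21.2 CPM) without passing the limit. The same library had the lowest sum of sympathetic neuron markers, 33.5 CPM. The tenth was the total count of E4 C38, 24647246, where the next E4 library had 37505055. Why these libraries stood apart was not tested.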

How the results depend on the processing

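No paired analysis was possible because no replicate number is shared between groups. Of 1930 recomputed fold changes of single genes, 1712 kept their direction and their side of the threshold. With the direction kept, 136 lost and 21 gained a call. A further 61 changed sign, and those of them that also lost a call are not among the 136. The causes were not tested. The lowest count of any of the 10 genes in a library was 70, for Timd4.

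The number of genes called for E2 against OVX, 9 as reported, was 1 in the first and 0 in the second number series and 1 with the pan-macrophage mean as a covariate, and 6 to 10 with single libraries left out. All genes called in the number series and with the covariate numbered 341, 92 and 4340, beside 1037 as reported. Of the fits with a library left out, the one without OVX C5 called 10 of the 10, beside 1262 of 25270 genes. Counts over all genes are not given for the other such fits. For E4 against OVX (2 as reported, beside 5511 of all genes) it was 4 with library totals unscaled, 1 with RLE size factors, with no filter, with OVX, E2 and E4 only, with number series as a covariate and with the pan-macrophage mean, 0 with the 2 groups alone, in either number series, without OVX C5 and TAM C35, at an adjusted p under 0.01 and with sympathetic, B cell or adipocyte lists as covariates, and 0 to 5 with single libraries left out. All genes called in these E4 fits numbered 5992 unscaled, 5397 with RLE, 4182 with no filter, 5348 with 3 groups, 5184 with the series covariate, 3930 with the pan-macrophage mean, 4396 with 2 groups, 3078 and 5 in the number series, 5616 without OVX C5 and TAM C35, and 4532, 118 and 2363 with the sympathetic, B cell and adipocyte lists. Without OVX C5 alone, 0 of the 10 were called for E4, beside 4127 of 25270 genes. For TAM against OVX the number called was 1 with the pan-macrophage mean, beside 835 of all genes. For E4 against E2 it was 0 in the second number series and 0 with the pan-macrophage mean, and for TAM against E2 it was 1, 1 and, with the adipocyte list, 3. The pan-macrophage mean of E2 overlapped that of no other group, so fits with it cannot separate it from the treatment in comparisons with E2.

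Sign changes with the pan-macrophage mean as a covariate were, for E2 against OVX, Mrc1 -0.23, Folr2 -0.20, Timd4 -0.30, F13a1 -0.037, Cd209f -0.021, Cd209g -0.35 and Clec10a -0.053, for E4 against E2 Cd163 0.18, Folr2 0.046, Timd4 0.13 and Clec10a 0.19, for TAM against E2 Cd163 0.041, Timd4 0.060 and Clec10a 0.13, for E4 against OVX Clec10a 0.14, and for TAM against OVX Cd163 0.12 and Clec10a 0.079. All other sign changes were of uncalled values against OVX. For E4 they were Cd163 -0.040 and Lyve1 -0.029 in the first number series, Timd4 0.060, Retnla 0.15 and Clec10a 0.13 in the second, Cd163 -0.028 with totals unscaled, Clec10a 0.11 without OVX C5 and TAM C35, Clec10a 0.19 with the sympathetic list, Retnla 0.017 with the B cell list, and Retnla 0.0033 and Clec10a 0.20 with the adipocyte list. For TAM they were Cd163 0.24, Retnla 0.43 and Clec10a 0.26 in the second number series, Cd163 0.0058 with RLE size factors, 0.0019 with no filter, 0.0093 with number series as a covariate and 0.0071 with DESeq2, Cd163 0.13 and Clec10a 0.10 without OVX C5 and TAM C35, Cd163 0.14 and Clec10a 0.11 with the sympathetic list, Cd163 0.10, Retnla 0.12 and Clec10a 0.0077 with the B cell list, and Cd163 0.32, Lyve1 0.013, Retnla 0.41, Cd209f 0.072 and Clec10a 0.37 with the adipocyte list. With single libraries left out, E4 against OVX ranged from -0.050 to 0.21 for Cd163, from -0.017 to 0.25 for Lyve1 and from -0.27 to 0.11 for Clec10a, and TAM against OVX from -0.073 to 0.18 for Cd163, from -0.43 to 0.024 for Retnla and from -0.15 to 0.16 for Clec10a. Between TAM and E4, 40 of 380 recomputed values changed sign and 0 were called.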
